A study of Homo sapiens with 9 samples.

Results

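DRAM1, LRRN3, HAPLN3, NXPH3 and CFAP46 are 5 of the 60656 genes counted in RIVA lymphoma cells expressing mutant BCL10, and each had more reads with BCL10 R58Q than with BCL10 S136X or an empty vector. They were chosen from these same libraries, as genes near-silent in vector and much higher in R58Q than in S136X. All differences between groups given for them therefore describe the choice and carry no test. The choice had no stated cut-off. By log2 fold change of R58Q against S136X they ranked 2 (NXPH3), 6 (CFAP46), 13 (DRAM1), 29 (LRRN3) and 39 (HAPLN3) of 15195 genes tested. HAPLN3 did not match the description, since it had 128 to 137 counts in each vector library, or 3.99 ± 0.0706 CPM (counts on a shared library-size scale; SD, n = 3). The other 4 genes had vector means under 1 CPM.

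RIVA is an established human lymphoma line, of the activated B-cell-like type of DLBCL (diffuse large B-cell lymphoma). All cells carried a lentiviral doxycycline-inducible plvx-Tetone construct, either empty (vector, BCL10 wild type in the labels) or holding BCL10 S136X, a truncation, or BCL10 R58Q, a missense change in the CARD domain. Every group, vector included, received doxycycline for 24 h, at 200 ng/mL in the treatment protocol, whereas another label field writes the same figure per µL. Each group had 3 replicates, described in the study as biological, and 28047713 to 33122267 counts per library.

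The deposited column names hold one date for the vector and S136X libraries and a later one for the R58Q libraries. Date and R58Q construct therefore cannot be told apart in any value below that sets R58Q against another group. Comparisons of S136X with vector are within one date. BCL10 itself, read from endogenous transcript and construct together, had 885 to 1268 counts in vector, 9838 to 14293 in S136X and 10117 to 10596 in R58Q. B cell markers summed to 2441 to 3219 CPM in the 9 libraries, and monocyte markers to 0.307 to 0.589 CPM. Neuronal markers summed to 0.868 to 2.32 CPM and T cell markers to 5.49 to 15.02 CPM. Fibroblast markers were at 5.77 to 8.07 CPM in vector, 12.1 to 17.7 in S136X and 12.6 to 18.2 in R58Q, with COL1A1 making up most of the increase (means of 3.85, 12.1 and 13.2 CPM in that order). COL1A2 went the other way (3.18, 2.16 and 1.35 CPM), DCN had 1 to 18 counts per library, COL3A1 and PDGFRA 0 to 2, and LUM had 0. The part of these markers in the values of the 5 genes was not tested.

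BCL10 links CARD-containing scaffold proteins to the protease MALT1, and the assembled complex switches on NF-kB signalling downstream of the B cell receptor. The 5 genes are not a family. DRAM1 encodes a lysosomal membrane protein that is a p53 target and promotes autophagy, and LRRN3 encodes a leucine-rich repeat membrane protein known mainly from neurons. HAPLN3 encodes a link protein that joins hyaluronan to proteoglycans in extracellular matrix. NXPH3 encodes a neurexophilin, a secreted ligand of alpha-neurexins, and CFAP46 a protein of the central apparatus of motile cilia and flagella.

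The sequences just before the starts of LRRN3 and HAPLN3 are shown because these windows were searched for a motif of the NF-kB family and differed in it. Both come from RefSeq (GRCh38.p14) and are cut to the stretch outside annotated exons, 5′ to 3′ on the strand of each gene. Capitals mark matches to the kappaB motif, here GGG and CC with any 5 bases between them, on either strand.
LRRN3, chr7:111090877-111091005, plus strand: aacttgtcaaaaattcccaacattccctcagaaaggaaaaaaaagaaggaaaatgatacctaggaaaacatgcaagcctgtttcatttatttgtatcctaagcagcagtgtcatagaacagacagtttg
HAPLN3, chr15:88895627-88895794, minus strand: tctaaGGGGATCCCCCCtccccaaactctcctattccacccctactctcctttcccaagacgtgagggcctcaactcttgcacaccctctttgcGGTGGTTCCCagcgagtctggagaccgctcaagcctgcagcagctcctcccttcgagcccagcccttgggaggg

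Windows of 300 bases, 250 before and 50 after the start, were found for 4 of the 5 genes, NXPH3 being the exception. The kappaB motif was present in the windows of DRAM1, HAPLN3 and CFAP46 and in 58.7% of 35116 promoter windows, so its presence does not set these genes apart. In HAPLN3 the matches lay at -245, -244, -243 and -156 from the start, the first 3 overlapping each other. In DRAM1 they lay at -215 and -77, and in CFAP46 at -204. The LRRN3 window held none of the 4 motifs searched, which says only that these letters were not in it. TTCNNNGAA, the STAT motif, was at 2 in HAPLN3 and at -80 in CFAP46, against 7.66% of all windows. TGANTCA, the AP-1 motif (7.71% of windows), and the interferon response element, here GAAA repeated after any 2 bases (3.57%), were in none of the 4 windows.

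DRAM1 (ENSG00000136048.14, chromosome 12 of GRCh38, 101877580 to 102012130, plus strand) was lowest in vector, intermediate in S136X and highest in R58Q. Its raw counts in replicates 1 to 3 were 24, 27 and 25 in vector, 113, 223 and 218 in S136X, and 708, 664 and 1354 in R58Q. No library of one group overlapped another group, and the lowest R58Q library was 2.90 times the highest S136X library in CPM. Mean levels were 0.757 ± 0.0595, 6.14 ± 2.01 and 29.1 ± 10.6 CPM (SD, n = 3 each). The log2 fold change was 2.24 (standard error 0.319) for R58Q against S136X, 5.26 (0.297) for R58Q against vector and 3.01 (0.286) for S136X against vector. R58Q replicate 3 stood above the other R58Q libraries, and without it the first of these was 1.89. Of the 31-base words of its longest transcript, 2.38% also occur in other genes, so a small part of its reads could be split.

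LRRN3 (ENSG00000173114.13, chromosome 7, 111091006 to 111125454, plus strand) had the same stepped order at lower counts. Vector replicates 1 to 3 had 10, 15 and 17 counts, S136X replicates 110, 115 and 56, and R58Q replicates 377, 214 and 342. The 3 groups did not overlap, though the gap between S136X and R58Q was the narrowest of the 5 genes, with the lowest R58Q library at 1.90 times the highest S136X library. Mean levels were 0.418 ± 0.107, 3.09 ± 0.984 and 10.1 ± 2.79 CPM. The log2 fold change of R58Q was 1.69 (standard error 0.286) against S136X and 4.58 (0.291) against vector, and that of S136X against vector was 2.88 (0.331). Measured as the gain over vector in CPM, S136X reached 27.6% of the R58Q gain for LRRN3 and 19.0% for DRAM1. Of its 31-base words, 0.0271% occur in other genes.

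HAPLN3 (ENSG00000140511.12, chromosome 15, 88877294 to 88895597, minus strand) was expressed in all 3 groups and had the tightest replicates. Its counts in vector were 128 in replicate 2 and 137 in replicate 3, with replicate 1 between them, and 145, 169 and 153 in S136X and 487, 404 and 465 in R58Q. The S136X libraries sat just above vector, the lowest at 1.23 times the highest vector library, while all R58Q libraries were at least 2.51 times the highest S136X library. Mean levels were 3.99 ± 0.0706, 5.18 ± 0.211 and 14.7 ± 1.52 CPM, and the coefficient of variation among R58Q replicates was 10.3%, against 27.7% to 36.5% for the other 4 genes. The log2 fold change was 1.49 (standard error 0.117) for R58Q against S136X, 1.88 (0.119) for R58Q against vector and 0.38 (0.134) for S136X against vector. S136X reached 11.1% of the R58Q gain.

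NXPH3 (ENSG00000182575.8, chromosome 17, 49575871 to 49583827, plus strand) was at or near 0 outside R58Q. Replicates 1 to 3 had 2, 2 and 0 counts in vector, 4, 1 and 0 in S136X, and 35, 72 and 69 in R58Q. Vector and S136X overlapped, and no R58Q library came near them. The summed normalized counts were 34.3 times higher in R58Q than in S136X, with a 95% exact binomial interval of 14.4 to 107 that covers counting error only. The fitted log2 fold change was 4.99 (standard error 0.622). It rests on 5 S136X counts in all, and was 6.53 without S136X replicate 1, which held 4 of them. Against vector, with 4 counts in all, R58Q was 47.9 times higher (18.4 to 178), and S136X against vector was 1.39 (0.300 to 7.03), too wide to place.

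CFAP46 (ENSG00000171811.14, chromosome 10, 132808392 to 132942823, minus strand) was likewise all but unread outside R58Q. It had 1, 0 and 0 counts in vector, 1, 3 and 3 in S136X, and 57, 37 and 76 in R58Q. The R58Q libraries were at least 11.7 times the highest S136X library in CPM. R58Q was 23.7 times higher than S136X in summed normalized counts (95% exact binomial interval 11.3 to 59.8), with a fitted log2 fold change of 4.48 (standard error 0.434). With 1 vector count in all, the ratio of R58Q to vector was 185 (32.7 to 7347) and that of S136X to vector 7.81 (1.003 to 352). The fitted value for R58Q against vector, 7.05 (standard error 0.621), became 8.87 without vector replicate 1, the library with that count.

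**Figure D1:**
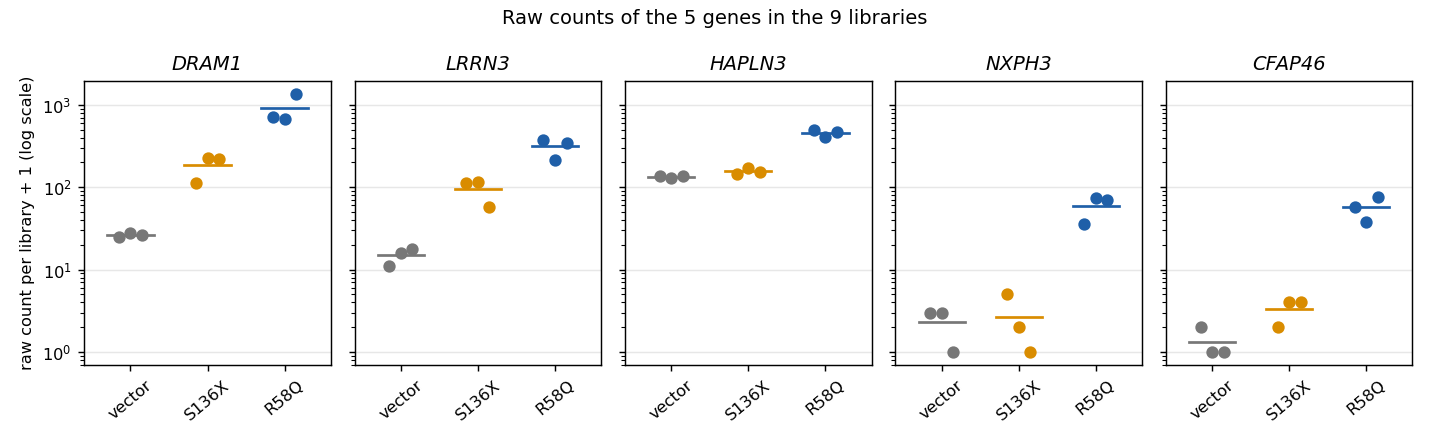
Raw counts plus 1 (log axis) of the 5 genes in the 9 libraries, 1 panel a gene, with points for replicates 1 to 3 from left to right and a bar at the mean. R58Q libraries lie above all others in each panel, DRAM1 and LRRN3 step up through S136X, and in HAPLN3, NXPH3 and CFAP46 the S136X points lie near vector.

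The 3 R58Q libraries were above the 3 S136X libraries in CPM in 5 of the 5 genes, where the same held for 9.46% of all genes tested, and above the 3 vector libraries in 5 of 5, against 21.1% of all. S136X was above vector without overlap in 4 of 5, against 16.0% of all, and for CFAP46 this rests on 1 count in one library of each group. The choice of the genes fixed the first 2 of these counts. By asking for low vector levels it also favoured the third, so none of the 3 is a test. Within R58Q the genes did not share 1 library order. Replicate 2 was lowest for DRAM1, LRRN3, HAPLN3 and CFAP46, but highest for NXPH3.

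Levels can be compared between genes only per length. Per kilobase of annotated exon, the R58Q mean was 6.97 CPM for DRAM1, 4.17 for HAPLN3, 2.61 for LRRN3, 0.336 for NXPH3 and 0.171 for CFAP46. HAPLN3 stood first in vector at 1.13 CPM per kilobase, followed by DRAM1 at 0.181 and LRRN3 at 0.108. Even in R58Q, NXPH3 (1.90 ± 0.639 CPM) and CFAP46 (1.83 ± 0.550 CPM) were low transcripts, with means above those of 63.0% and 62.8% of the genes detected in any library.

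Over all genes, R58Q against S136X gave 66 calls among 15195 tested (0.434%), 41 higher (0.27%) and 25 lower (0.165%) in R58Q. Calls were made at 1.5-fold or more and an adjusted p under 0.05. Of the 41 higher genes 37 were protein-coding and 1 was a pseudogene, whereas 16 of the 25 lower genes were pseudogenes. The number of calls was 5 without S136X replicate 3, 17 without S136X replicate 2 or without R58Q replicate 3, and 446 once replicate number was a block (206 higher).

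Among 2242 tested genes with a vector mean under 1 CPM, 9 were called higher in R58Q than in S136X and 0 lower (edgeR), beside 106 and 171 at an unadjusted p under 0.05 and 22 and 2 with DESeq2. With the replicate block these were 73 and 96, and without S136X replicate 3 the 9 fell to 1. Of the 9, DRAM1, NXPH3 and CFAP46 are described above, whereas LRRN3, also near-silent in vector, was not called in this fit. As the 5 genes were chosen on this comparison, their calls are no test. Without S136X replicate 3, 0 of the 5 were called higher (1 of all 15575 genes tested), and without S136X replicate 2, 1 was (10 of 15519). All 5, LRRN3 included, were called higher with DESeq2 (93 of 15195 genes) and with the replicate block (206 of 15195). The same held with total counts only, no filter, all 9 libraries in one fit or without R58Q replicate 2. Among the rest of the 9, the 5 of highest fold change were IL6 and IL12B, which encode cytokines, ADIRF, BEGAIN and the G protein-coupled receptor gene GPR132. They were picked because they were called in this comparison, so their p-values for it describe that choice and are no test. IL6, IL12B and ADIRF passed the count filter only through their R58Q libraries. IL6 counts were 0 throughout vector, 2 throughout S136X and 91, 63 and 87 in R58Q (log2 fold change 5.20 for R58Q against S136X, edgeR adjusted p = 0.00162). ADIRF had 0, 2 and 4 counts in vector, 0, 7 and 6 in S136X and 141, 78 and 182 in R58Q (4.86, edgeR adjusted p = 0.0186). BEGAIN had 15, 17 and 22, then 13, 10 and 13, then 51, 52 and 73 counts (2.22, edgeR adjusted p = 0.0154), and GPR132 12, 9 and 9, then 16, 21 and 18, then 72, 62 and 93 (1.99, edgeR adjusted p = 0.0138). Without S136X replicate 3 the IL6 call remained and those of ADIRF, BEGAIN and GPR132 were lost.

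**Figure D2:**
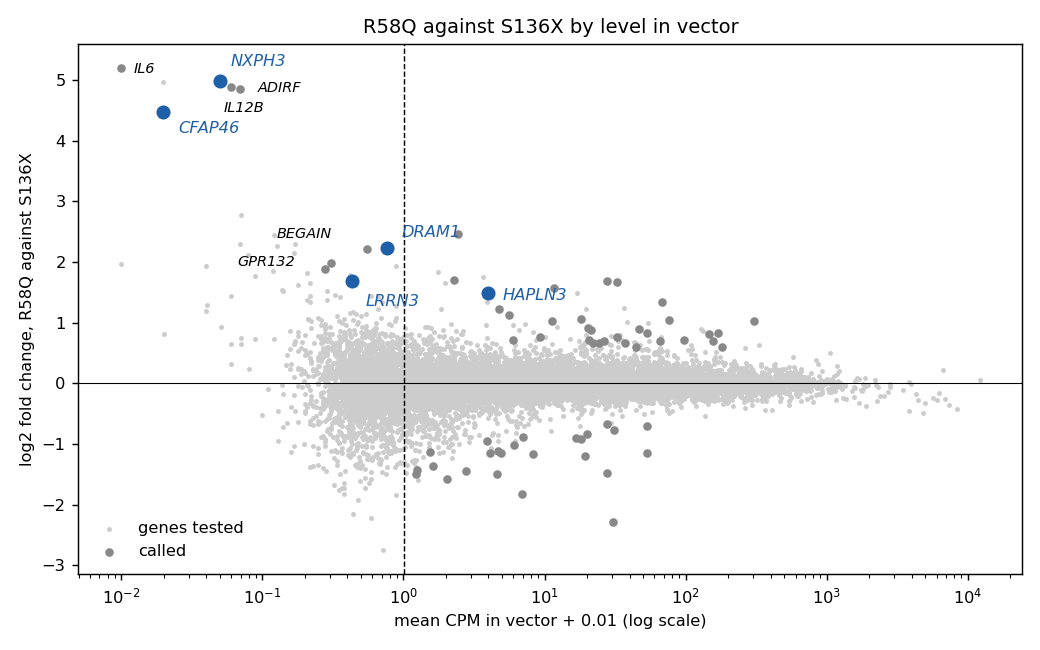
Fitted log2 fold change of R58Q against S136X for the 15195 genes tested, by mean CPM in vector plus 0.01 (log axis), with called genes in dark grey and the 5 genes in blue. The dashed line marks a vector mean of 1 CPM, and of the 5 genes only HAPLN3 lies to its right.

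The genes whose profiles over the 9 libraries were nearest to each of the 5 were found by the root mean square distance of log2 CPM centred on each gene's own mean. Near DRAM1 were the chemokine gene CCL22 (distance 0.427) and LTA, which encodes lymphotoxin alpha (0.446). LTA had 855, 927 and 1006 counts in vector, 4771, 5738 and 4747 in S136X and 17311, 12762 and 20599 in R58Q. Its log2 fold change was 4.30 for R58Q against vector and 2.61 for S136X against vector. Genes found by this likeness share the pattern for which the 5 were chosen, so their values here are a description with no test. LRRN3 was nearest to LTA (0.283), EBI3 (0.400), a subunit of IL-27 and IL-35, and IL4I1 (0.432), an amino acid oxidase. DRAM1 and LRRN3 were 0.613 apart.

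HAPLN3 was nearest to GAB2 (0.220), a signalling adaptor, NFKBIA (0.280), the NF-kB inhibitor that NF-kB itself induces, and FAM102B (0.285). NFKBIA had 9440 to 11079 counts in vector, 16421 to 19246 in S136X and 30412 to 42834 in R58Q. For NXPH3 and CFAP46 the nearest gene was IL6, at 0.776 and 0.428. CFAP46 and LINC02381 followed for NXPH3 (0.816 and 0.817), and IL12B (0.636) and LINC02381 (0.678) for CFAP46. IL12B had 2, 1 and 2 counts in vector, 0, 3 and 1 in S136X and 25, 30 and 80 in R58Q. These distances rest on the same 9 libraries, and for low genes on few counts.

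**Figure D3:**
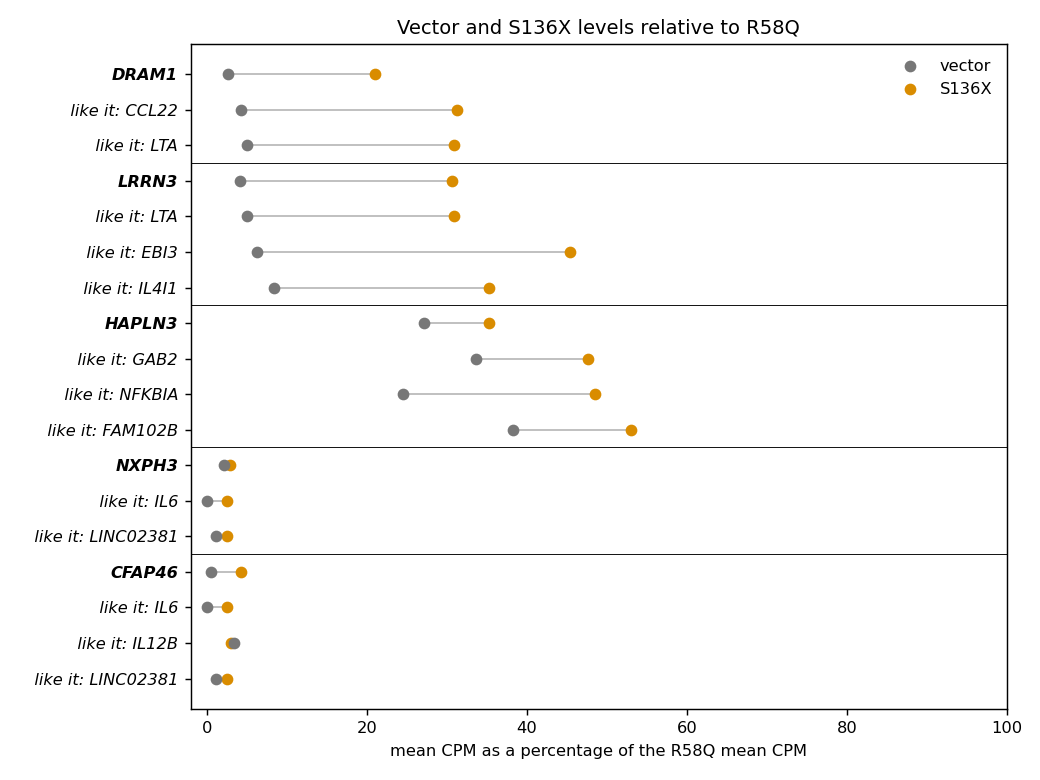
Mean CPM in vector (grey) and S136X (orange) as a percentage of the R58Q mean, for the 5 genes (bold) and genes of similar profile listed under each. S136X stands at 21.1% of R58Q for DRAM1, 30.6% for LRRN3, 35.3% for HAPLN3, 2.94% for NXPH3 and 4.24% for CFAP46.

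Among the chromosomal neighbours of the 5 genes GNPTAB alone was called. Of 11 nearest or overlapping protein-coding neighbours, 7 had enough counts to be tested. In R58Q against S136X 0 of the 7 were called (edgeR, 0.434% of all genes; 1 at an unadjusted p under 0.05), though GNPTAB was with DESeq2, with no filter, with all 9 libraries in one fit, with the replicate block or without R58Q replicate 2. In R58Q against vector 1 of 7 was called (7.63% of all), and in S136X against vector 0 of 7 (3.87% of all; 0 with DESeq2 and 3 at an unadjusted p under 0.05). DOCK4 was also called lower in R58Q than in vector without R58Q replicate 1. GNPTAB, a subunit of the enzyme that tags lysosomal hydrolases, lies 46621 bases from DRAM1. It had 1124, 1103 and 1120 counts in vector, 1232, 1447 and 1275 in S136X and 2010, 1862 and 2757 in R58Q. Its log2 fold change for R58Q against vector was 1.10 (edgeR adjusted p = 0.000531). WASHC3, 710 bases beyond the other end of DRAM1, had 392 to 455 counts in vector and 290 to 343 in R58Q.

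LRRN3 lies inside IMMP2L, which runs on the opposite strand and had 211 to 295 counts in vector, 165 to 230 in S136X and 198 to 212 in R58Q. ACAN, the cartilage proteoglycan gene 1940 bases from HAPLN3, had 0 to 2 counts in any library, and MFGE8, on the other side, 1775 to 2270 in vector and 1524 to 1765 in R58Q. The lncRNA AC006487.2, which overlaps NXPH3 on the opposite strand, had 0 or 1 count in each library. SPOP, 15057 bases from NXPH3, had 1641 to 1796 counts in vector and 1440 to 1635 in R58Q. The neighbours of CFAP46, NKX6-2 and ADGRA1, had 0 or 1 count throughout.

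**Figure D4:**
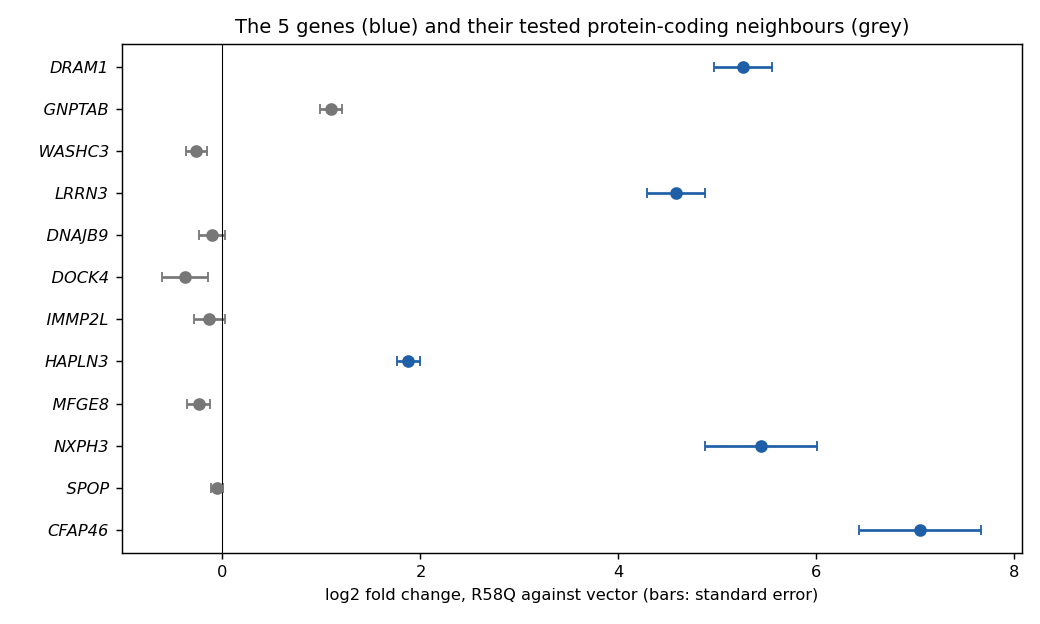
Fitted log2 fold change of R58Q against vector with its standard error for the 5 genes (blue) and, under each, its tested protein-coding neighbours (grey). The neighbours lie between -0.37 and -0.053 except GNPTAB at 1.10.

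Relatives of the 5 genes were mostly silent or did not pass the test. DRAM2 had 873 to 1436 counts per library and was called in none of the 3 comparisons. TMEM150A was higher in R58Q than in vector (log2 fold change 0.71, edgeR adjusted p = 0.0342), a call that 5 of the 6 fits leaving out 1 library did not keep. Among 18 leucine-rich repeat relatives of LRRN3, 8 had under 10 counts in every library, and 10 were tested in R58Q against vector. LRRC4 alone was called, higher in R58Q (2.12, edgeR adjusted p = 0.00543), so 1 of 10 beside 7.63% of all genes. DESeq2 called 2 of the 10 higher, and the replicate block 2 higher and 3 lower. LRRC4 had 44, 87 and 86 counts in vector, 90, 160 and 177 in S136X and 193, 231 and 459 in R58Q. The other link protein genes, HAPLN1, HAPLN2 and HAPLN4, had 0 to 4 counts. NXPH1 and NXPH2 had 0 counts in all libraries, whereas NXPH4 had 2196 to 2800 in vector, 2092 to 2387 in S136X and 1506 to 1942 in R58Q. Of 5 partners of CFAP46 in the cilium, 4 had under 10 counts in every library.

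The pathways the 5 genes belong to gave 0 calls in R58Q against S136X (edgeR), where 0.434% of all genes were called, so lists of this size are near the background with no call. This held for 48 tested autophagy genes, 27 p53 target genes, 9 genes of hyaluronan, lecticans and their receptors, 8 neurexins and their ligands, and 35 genes of motile cilia. Counts at an unadjusted p under 0.05 were 1, 7, 2, 0 and 4 in that order. The 2 hyaluronan genes were CD44, just short of a call (log2 fold change 0.89, edgeR adjusted p = 0.05004), and TNFAIP6 (1.78, edgeR adjusted p = 0.0924). DESeq2 called 2 hyaluronan genes and 0 of the others. The replicate block called 2 hyaluronan genes, 1 p53 target and 1 cilium gene. The medians of the log2 fold change were 0.011, 0.057, 0.12, -0.092 and 0.035, against 0.0028 over all genes.

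Against vector, 632 of 15435 genes were higher in R58Q (4.09%) and 546 lower (3.54%), a split of 549 and 741 with total counts only and of 542 and 772 with upper-quartile scaling. Among the calls were 0 higher and 1 lower autophagy gene (ATG9B, -0.65, edgeR adjusted p = 0.0331, lost in 4 of 6 fits leaving out 1 library). Of the p53 target genes 4 were higher and 2 lower, with a median log2 fold change of -0.0296 against -0.0283 over all genes. Beside the genes of the naming rule, the 2 lower ones were BTG2 (-0.79, edgeR adjusted p = 0.000667) and TP53INP1 (-0.74, edgeR adjusted p = 0.0402). FAS, the death receptor gene, had a log2 fold change of 1.70 (edgeR adjusted p = 0.00138), AEN, an apoptosis nuclease, 1.47 (edgeR adjusted p = 9.81e-05) and TRIM22 1.20 (edgeR adjusted p = 0.0203). AEN was also called higher in S136X than in vector (1.15, edgeR adjusted p = 0.000236). So was FAS (0.998, edgeR adjusted p = 0.0198), a call lost in 4 of 6 fits leaving out 1 library. In S136X 3 p53 targets were higher and 3 lower than in vector, where 2.05% and 1.82% of all genes were. The TRIM22 call was lost without vector replicate 2, R58Q replicate 2 or R58Q replicate 3. CD44, the main hyaluronan receptor, had 4219 to 4378 counts in vector, 13972 to 15066 in S136X and 20814 to 33804 in R58Q. CD44 was higher in R58Q (2.83, edgeR adjusted p = 3.6e-05) and in S136X (1.93, edgeR adjusted p = 2.64e-06) than in vector. TNFAIP6, a secreted hyaluronan-binding protein, was higher in R58Q (3.89, edgeR adjusted p = 0.00294) on 0 to 5 vector counts and 28 to 47 in R58Q. STAB1, a scavenger receptor gene, was lower in R58Q than in vector (-0.99, edgeR adjusted p = 0.0449). It was also lower in S136X than in vector (-1.11, edgeR adjusted p = 0.0267). Each STAB1 call was lost in 5 of the 6 fits leaving out 1 library. Of the motile cilium genes 1 was higher and 3 lower, CFAP45 at 1.29 (edgeR adjusted p = 0.0111), DNAH11 at -0.999 (edgeR adjusted p = 0.0445, lost in all 6 such fits) and CCDC114 at -0.86 (edgeR adjusted p = 0.0121). CFAP45 was also called higher in S136X than in vector (1.25, edgeR adjusted p = 0.0206), a call lost in 4 of 6 such fits.

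NF-kB target genes, which the complex of BCL10 is known to switch on, were the list with calls between the mutants. In R58Q against S136X 13 of 56 tested were higher and 0 lower, with a median log2 fold change of 0.50, where 0.27% of all genes were higher. The count was 1 without S136X replicate 3, 4 without R58Q replicate 3, 6 without S136X replicate 2 and 24 with the replicate block. Of the targets, TRAF1, a signalling adaptor, was higher in R58Q than in S136X (1.35, edgeR adjusted p = 0.00419), as were LTA (1.68) and CCL22 (1.67). LTA and CCL22 have profiles like DRAM1, so their values for this comparison are no test. TRAF1 is named because it was called. The TRAF1 and LTA calls were lost without S136X replicate 3, and that of CCL22 in 4 of 6 fits leaving out 1 library. Against vector 44 of 57 were higher and 1 lower in R58Q. In S136X 38 of 55 were higher and 0 lower, where over all genes 2.05% were higher and 1.82% lower.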

How the data were processed

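RNA-seq of 9 libraries (3 vector, 3 S136X, 3 R58Q) was analysed. The authors deposited read counts per gene for each library, unnormalized, beside scaled copies that were not used. The library kit selected mRNA, and reads from 2 sequencing runs were combined. The submitters' processing notes name cutadapt, STAR, Picard and hg38, without versions. Whether counting used strand is not given in the sources used here. Of the gene identifiers, 96.3% are in GENCODE 29.

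Counts were fitted in R 4.3.3 with edgeR 4.0.16 (limma 3.58.1), each comparison on its own 6 libraries, using filterByExpr (minimum count 10, minimum total 15), TMM factors, quasi-likelihood F tests and Benjamini-Hochberg adjustment. CPM use TMM factors over 9 libraries. Profile distances use log2 CPM with a prior count of 2. Ratios of low counts use summed counts with exact binomial intervals. Counting error is all that intervals cover.

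The members and gene lists were chosen with earlier results of these data known. Named beside them are BCL10, relatives, chromosomal neighbours, the 3 nearest profiles of each gene, up to 4 genes of each pathway list called between the mutants (or up to 3 against vector), and 5 other near-silent genes. A gene that this rule selects is not reported here. Promoter windows were searched whole but printed only outside exons of GENCODE 29, so those of DRAM1, where 21 upstream bases remain, and CFAP46 are not shown.

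Alternatives were DESeq2 1.42.0, scaling by upper quartile or by totals alone, a filter of 10 counts per library or none, 1 fit over 9 libraries, a replicate block, no fold threshold and each library left out. Replicates of a group differed beyond sampling noise (chi-square divided by its degrees of freedom, 7.91 to 25.6). Libraries sharing a replicate number in the labels deviated together (9 correlations, 0.143 to 0.626), which meets the rule for pairing. The printed fold changes, p-values and calls still come from fits without the replicate block. Values with the block are given for some counts of calls only, and not for fold changes or p-values. For R58Q against vector the block gave 1646 calls (740 higher and 906 lower), against 1178 without it. On simulated data for R58Q against S136X (15195 genes), 59 of 100 genes changed 2-fold and 95 of 100 changed 4-fold were called, with 13 unchanged genes.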

Additional observations from a re-analysis of the deposited data

Results flagged for a closer look

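Fitted directly as R58Q against S136X with edgeR, 66 genes were called between the 2 mutants, 41 higher and 25 lower in R58Q. Only the 12 that the naming rule picked, other than the 5, are listed here. Each of the 12 was higher in all 3 R58Q libraries than in all 3 S136X libraries, as were 9.46% of all genes tested. Only genes called in this comparison are listed, so that separation largely follows from the choice and is no test. Among near-silent genes, the fitted log2 fold change was 5.20 for IL6, 4.89 for IL12B (edgeR adjusted p = 0.0461), 4.86 for ADIRF, 2.22 for BEGAIN and 1.99 for GPR132. Among genes with a profile like DRAM1 or LRRN3 it was 1.67 for CCL22, 1.68 for LTA and 1.13 for EBI3, and among those like HAPLN3 1.06 for GAB2, 1.03 for NFKBIA and 0.91 for FAM102B. These 6 were picked for a profile like that of genes chosen as higher in R58Q, so their values describe that choice and are no test of it. The near-silent genes were picked for being called in this comparison, so their values are no test either. TRAF1, an NF-kB target, had 1.35.

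Of these 12 calls, 11 were lost without S136X replicate 3, 9 without S136X replicate 2 and 8 without R58Q replicate 3, and IL6 alone was called in each fit that left out 1 library. The later date of the R58Q columns applies to each of them and cannot be told apart from the construct.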

How the results depend on the processing

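For R58Q against S136X the number of genes called was 146 with DESeq2, 165 with no filter, 114 with all 9 libraries in one fit and 446 with the replicate block, and leaving out 1 library gave 5 to 63. R58Q against vector gave 3243 with no fold threshold and 719 to 1248 with 1 library left out (719 without vector replicate 2, 778 without R58Q replicate 3). S136X against vector gave 934 with no filter, 1014 with the replicate block, 1574 with no fold threshold and 279 to 705 with 1 library left out (279 without vector replicate 2, 349 without S136X replicate 3). Total counts only changed the split against vector to 549 higher and 741 lower in R58Q, from 632 and 546, and to 257 and 368 in S136X, from 319 and 282. Upper-quartile scaling gave 542 and 772 in R58Q, and 277 and 333 in S136X. The number of near-silent genes higher in R58Q, recounted under fits added after seeing the data, was 22 with DESeq2, 30 with no filter, 4 with at least 10 counts in every library, 15 with all 9 libraries, 73 with the replicate block and 1 to 10 with 1 library left out. The vector mean of HAPLN3 was 4.10 CPM with total counts only. The cause of these shifts was not tested. For the 5 genes, 163 of 165 alternative log2 fold changes moved by less than the replicate spread and 0 changed sign. Leaving out 1 of 3 libraries seldom moves a mean by that spread. The choice of the genes made a change of sign in the R58Q comparisons unlikely, so this tally is a description and no test. Of 667 alternatives for calls of the other named genes 73 lost the call and 0 changed sign. The replicate block ended none of those calls, and it gave more calls than the main fit in each comparison. Only calls made in the main fit entered this second tally, so a change of sign was unlikely and it is likewise no test. NXPH3 and CFAP46 rest on 0 to 4 counts in vector and S136X libraries, so the ratio of S136X to vector was only loosely fixed, with counting intervals of 0.300 to 7.03 and 1.003 to 352.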
